A study of Homo sapiens with 4 samples.

Results

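The genes described here build and bind the hyaluronan matrix, a gel of a very long sugar polymer and large proteoglycans around cells, or encode small proteoglycans of the collagen matrix. There are 9 of them among 19390 listed genes: the hyaluronan synthase genes HAS2 and HAS3, the hyaluronan receptor gene CD44, the large proteoglycan gene VCAN (versican), the link protein genes HAPLN1 and HAPLN3, and the small leucine-rich proteoglycan genes LUM (lumican), DCN (decorin) and BGN (biglycan). They were picked by symbol, matched to the Entrez IDs of the deposited tables, and all 9 were listed in at least 1 library. The choice was made with results of these libraries known, so their differences between days are given as a description, without a test.

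RNA came from H1 cells, an established wild-type line of human embryonic stem cells, either undifferentiated (day 0) or 2, 3 or 4 days into a protocol that drives them stepwise to blood. Per the labels, custom mTeSR1 medium held activin A at 40 ng/ml and BMP4 at 50 ng/ml for the first 2 days, then VEGF at 40 ng/ml and bFGF at 50 ng/ml for 2 days. The day 2 library therefore follows the activin A and BMP4 step, and days 3 and 4 lie within the VEGF and bFGF step. With 1 library for each day there is no replicate check of any difference and hence no p-value. The 95% intervals printed with the folds reflect counting error alone.

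Hyaluronan is made at the plasma membrane by HAS enzymes, which thread the growing chain directly out of the cell. Versican binds the chain through one end of its core protein, link proteins lock that bond, and CD44 anchors the chain to cells. In the embryo this matrix is best known from the cardiac jelly, where Has2 and versican are needed for the endocardial cushions of the heart. Lumican, decorin and biglycan are small proteins of leucine-rich repeats that bind collagen fibrils and regulate their assembly.

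Versican and HAS3 are made as several transcripts, and the deposited gene length, described further on, moved with the day for both. Coding splice junctions are shown because some of these transcripts part there, with the shared exon in lower case and the exon that differs in capitals. Not all transcripts are separated: the longest and the middle HAS3 transcript share a run, as do the versican transcripts with the first glycosaminoglycan exon. Each run holds 15 bases on either side of the junction, 5′ to 3′, from GENCODE transcripts on GRCh38, plus strand. The versican runs start in exon 6 on chromosome 5, and the HAS3 runs in exon 3 on chromosome 16.
VCAN with the first glycosaminoglycan exon: cctactgctttaaacCTAAAGAGGCTACAA
VCAN with the second glycosaminoglycan exon alone: cctactgctttaaacGTCGAATGAGTGATT
VCAN without either exon: cctactgctttaaacGACCTGATCGCTGCA
HAS3 with the full coding end: gggggagatgtccagATCCTCAACAAGTAC
HAS3 with the alternative last exon: gggggagatgtccagCCCCCAGGGAAAGGT
In versican the first of these exons, of 2961 bases, and the second, of 5262 bases, encode the stretches that carry chondroitin sulfate chains. The alternative last exon of HAS3 closes a reading frame of 281 codons before the stop, against 553 in the other transcripts.

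The libraries held 5.04 to 5.49 M expected counts, and 1 count was worth 0.182 to 0.196 CPM (counts scaled to the TMM-adjusted library total). The rule of size used below asks for a change of 2 or more in log2(CPM + 1), which is 4-fold on that scale, in a gene that reaches 1 CPM in one of the libraries compared. Of the 9 genes, 8 reached 1 CPM in some library. Markers of undifferentiated cells stood at 5 of 5 with at least 1 CPM at day 0, and their summed level went from 4437 CPM to 357 CPM at day 4. Primitive streak markers summed to 0.970, 501, 199 and 45.4 CPM at days 0, 2, 3 and 4, highest at day 2 as HAS2 was, with GSC and MESP1 at 0 counts at day 0. Of the fibroblast and smooth muscle markers, 8 of 8 were at 1 CPM or more on every day, with sums of 749.5, 1266, 1914 and 3015 CPM. From day 0 to day 4 the increase of the sum lay mostly in COL1A1, COL1A2 and COL3A1, which are pathway genes too. The other 5 markers summed to 383, 570.4, 482 and 398 CPM, highest at day 2. Of those 5, THY1 went from 352 to 102 CPM between days 0 and 4, while the rest were higher at day 4. Between the same days PDGFRA went from 2.72 to 98.1 CPM, PDGFRB from 17.5 to 68.9 CPM and ACTA2 from 4.85 to 52.3 CPM. POSTN was highest at day 2, with 5.82, 341.5, 215 and 76.5 CPM at days 0, 2, 3 and 4. Endothelial markers summed to 246, 393, 996 and 1235 CPM, of which KDR alone gave 209, 354, 868 and 942 CPM. CDH5 went from 0.582 to 83.4 CPM and PECAM1 from 2.13 to 59.6 CPM between days 0 and 4. Cartilage markers summed to 41.5, 30.8, 147 and 156 CPM, and endoderm markers to 4.65, 100.4, 126 and 176 CPM. The endoderm markers followed different courses, with SOX17 at 0.194, 90.4, 89.1 and 55.3 CPM and APOA1 at 0, 1.57, 15.8 and 79.6 CPM. Within the cartilage list COL2A1 was higher and COL9A1 lower at day 4 than at day 0, at 65.4 against 8.53 CPM and 1.27 against 16.3 CPM. Of the blood markers, PTPRC measured 5.43, 1.77, 1.16 and 0.727 CPM on the same days, SPI1 0.193 to 0.727 CPM and ITGAM 0.182 to 1.37 CPM. CD14 and CD3E were listed in no library. In bulk RNA, more cells of a type and more RNA per cell cannot be told apart, and the part of these cell types in the values below was not tested.

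The synthase genes exchanged places at day 2. HAS2, the main synthase of the early embryo, measured 8.92 CPM at day 0, 818 CPM at day 2, 544 CPM at day 3 and 238 CPM at day 4. It was thus low only in undifferentiated cells, highest after the activin A and BMP4 step, and lower on each later day. The increase at day 2 was 91.7-fold (95% counting interval 68.6 to 125), and day 4 was 3.44-fold below day 2 (3.23 to 3.66) but still 26.7-fold (19.9 to 36.6) above day 0.

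HAS3, whose enzyme makes the same polymer, measured 150.5 CPM at day 0 and 24.5, 26.5 and 20.7 CPM at days 2, 3 and 4. It was high only in undifferentiated cells, and its 3 later values lay within counting error of each other. In counts it was 6.14-fold lower at day 2 (5.07 to 7.47) and 7.26-fold lower at day 4 than at day 0 (5.96 to 8.92). Per length, in the deposited FPKM, the levels were 48.99, 12.93, 14.06 and 12.81, a smaller decrease of 3.79-fold at day 2 and 3.82-fold at day 4 that stays short of the 4-fold rule. The gap between the scales comes from the deposited length of HAS3, which was itself shorter on the later days.

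HAS1, the remaining synthase gene, was listed in no library and was taken as 0. If it was among the genes counted, this allows 0.545 to 0.588 CPM at a floor of 3 counts. Within each library, where genes are compared per length, HAS3 stood 17.6-fold above HAS2 at day 0 (13.1 to 24.3). At day 2 HAS2 stood 18.9-fold above HAS3 (15.8 to 22.7), at day 3 11.7-fold (9.87 to 14.0) and at day 4 5.66-fold (4.67 to 6.91). HAS2 thus gave 5.37% of the summed synthase FPKM at day 0 and 94.97, 92.1 and 85.0% at days 2, 3 and 4. The sum itself was 51.8 FPKM at day 0, 257 at day 2, 179 at day 3 and 85.3 at day 4.

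**Figure D1:**
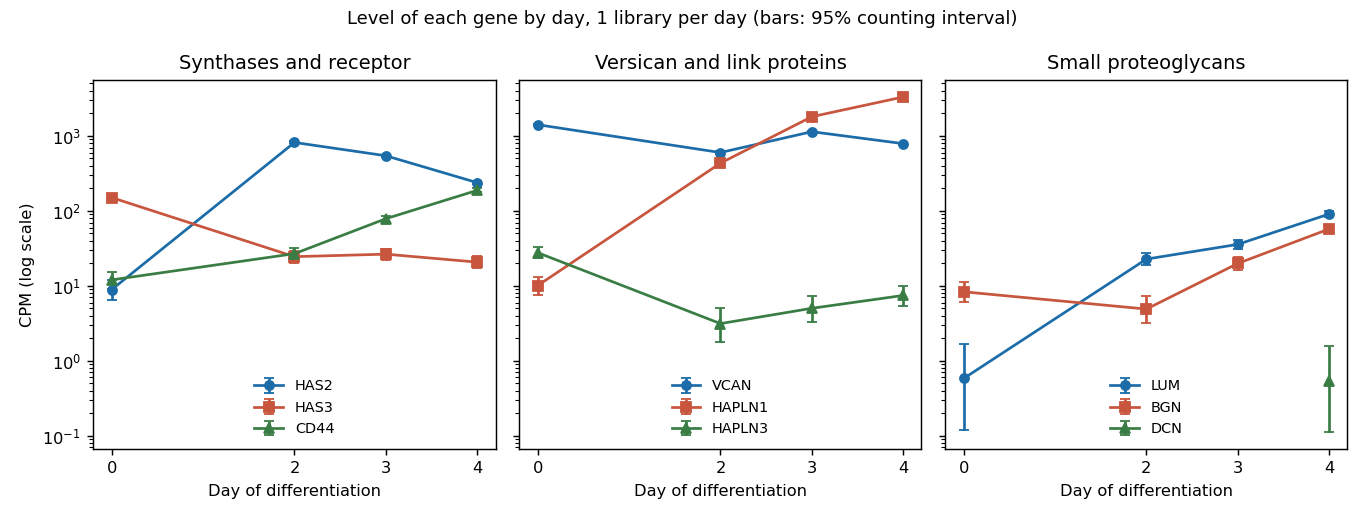
Level of each gene in CPM (vertical axis, log scale) against the day of differentiation, for the synthases and CD44, for versican and the link proteins, and for the small proteoglycans. Points are single libraries, bars are 95% counting intervals, and libraries at 0 counts are not drawn, so DCN has a point at day 4 alone. HAS2 and HAS3 cross between days 0 and 2, HAPLN1 climbs to 3304 CPM at day 4, and LUM, BGN and CD44 are highest at day 4.

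The deposited length of HAS3 was 3135 bp at day 0, 1870.13 bp at day 2, 1884 bp at day 3 and 1632 bp at day 4. In these tables the length is a mean over the transcripts of a gene: it differed between libraries for 0 of 10669 genes with 1 transcript and for 83.3% of 7370 genes with several. A shorter length thus records a larger estimated share of short HAS3 transcripts. All 3 transcripts listed for HAS3 matched GENCODE, where they measure 4220, 2170 and 1163 bp. The deposited lengths follow another annotation: for genes with 1 transcript, HAS2 is 3275 bp in the tables and 4190 bp in GENCODE, HAPLN1 4678 and 5607 bp, LUM 2116 and 3008 bp, and BGN 2465 and 2402 bp. A deposited mean can therefore not be placed between GENCODE lengths. The shortest is the one with the alternative last exon shown above.

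At day 2, HAS3 had the largest shortening of 4420 genes with several transcripts and at least 50 counts in both libraries, 1.68-fold, and it alone was 1.5-fold or more shorter (0.0226% of them, which is HAS3 itself). The 1.5-fold mark was set after the lengths were seen, so these ranks are a description. At day 4 against day 0 its shortening of 1.92-fold again ranked first, among 4419 genes, of which 4 (0.0905%) were 1.5-fold shorter. With a minimum of 20 counts its rank was 3 of 5331 genes at day 2 and 2 of 5317 at day 4. The later values of HAS3 rest on 114 to 137 counts, the tables give no error for the length and no count per transcript, and the share of each transcript was not analysed here.

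The longest HAS3 transcript has its own first exon, and the other 2 transcripts start at 2 other positions on the same strand. The last exons differ too, with 3326 bases in the longest transcript, 1208 in the middle one and 365 in the shortest. Whether the shorter deposited length goes with another start or another end was not tested. The 250 bases before the start of the long transcript are shown because the deposited length bears on the share of that transcript. They come from the RefSeq table of GRCh38.p14 (chr16:69107290-69107539, plus strand), lie in an intron of the other 2 transcripts, overlap no annotated exon, and carry in capitals the match to one of 5 motifs searched.
HAS3 upstream window: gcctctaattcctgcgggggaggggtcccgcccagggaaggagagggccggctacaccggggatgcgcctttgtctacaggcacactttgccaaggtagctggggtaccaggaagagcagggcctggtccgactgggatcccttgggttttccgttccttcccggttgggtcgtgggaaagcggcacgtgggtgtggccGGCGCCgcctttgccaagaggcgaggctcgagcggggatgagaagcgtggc
Both strands were searched for GGCGCC (the palindrome bound by SMAD1 and SMAD5), for AGATAA and the alternative spelling TGATAA of the motif of GATA factors, for the T-box motif TCACACC, for the E-box CAGGTG, and for the box spelled TATAAA, none of which overlapped another here. The window held 1 match to GGCGCC, as did 16.4% of 35116 windows of this length. It held 0 matches to the other motifs, which occur in 14.6% (GATA factors), 2.76% (T-box), 17.5% (E-box) and 10.7% (TATA box) of windows. Its GC content was 66.0% against a median of 58.0%, with 18 CpG sites against 11. A match describes these letters and is not evidence of binding.

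CD44, the main cell surface receptor for hyaluronan, was higher on each day than on the one before. It measured 12.02 CPM at day 0, 26.9 CPM at day 2, 78.7 CPM at day 3 and 188 CPM at day 4, and each of these steps exceeded counting error. The steps were 2.24-fold (1.64 to 3.07), 2.93-fold (2.41 to 3.58) and 2.39-fold (2.13 to 2.69), and day 4 stood 15.6-fold above day 0 (12.1 to 20.6). Per length, HAS2 stood 39.1-fold above CD44 at day 2 (33.0 to 46.7) and 1.75-fold at day 4 (1.61 to 1.90), so the gap closed from both sides. Of 8 listed CD44 transcripts, the estimated mean length was 4888 bp at day 0, 4199.99 bp at day 2, 4628 bp at day 3 and 4526 bp at day 4. The day 2 shortening of 14.1% was exceeded, in either direction, by 1.47% of genes. It rests on 62 counts at day 0 and 137 at day 2, few for a mean over 8 transcripts.

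Versican was abundant on all days and was lowest at day 2. VCAN measured 1411 CPM at day 0, 599.9 CPM at day 2, 1138 CPM at day 3 and 788 CPM at day 4. In undifferentiated cells it ranked 42nd of all genes by CPM, which does not divide by its long transcripts, and 449th by FPKM. Day 2 was 2.35-fold below day 0 (2.25 to 2.45), day 3 was 1.90-fold above day 2 (1.82 to 1.98) and day 4 was 1.44-fold below day 3 (1.39 to 1.502), so no difference reached 4-fold and the order of days was not steady. In FPKM, which divides by length, the values were 133.78, 57.44, 111.44 and 79.83 in the same order of days.

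The deposited length of VCAN declined on each day, from 10674 bp to 10139.6 bp, 10057 bp and 9779 bp. The 4 transcripts matched in GENCODE measure 12625 bp with both glycosaminoglycan exons and 9455 bp with the second alone. Those with the first alone and with neither measure 7154 bp and 2087 bp. The junctions shown above set apart the form with the second alone and the form with neither. The forms with both exons and with the first alone share the same junction there, so it does not separate them. The decrease of 8.39% from day 0 to day 4 was exceeded, in either direction, by 4.66% of the 4419 genes. It rests on 7275 counts at day 0 and 4337 at day 4, and day 2 had 3058 counts. Mixtures of other forms can give the same mean.

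**Figure D2:**
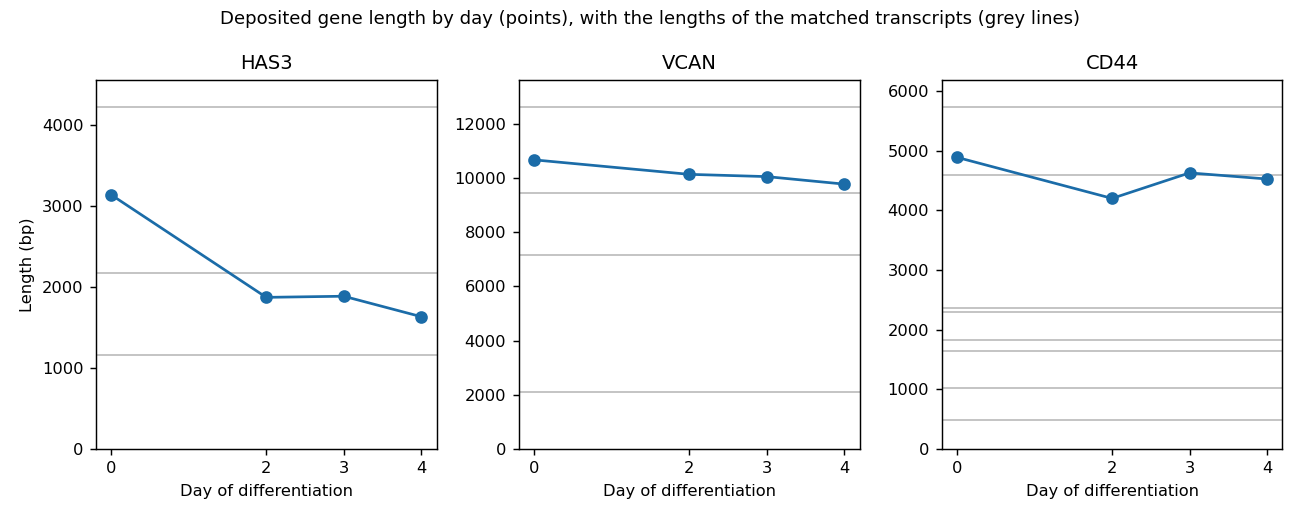
Deposited gene length in bp (vertical axis, from 0) against the day of differentiation for HAS3, VCAN and CD44, with 1 point per library and grey lines at the GENCODE lengths of the matched transcripts, which follow another annotation than the deposited lengths. HAS3 drops from 3135 to 1870.13 bp between days 0 and 2, VCAN declines from 10674 to 9779 bp, and CD44 dips at day 2.

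HAPLN1, which encodes the link protein that fastens versican or aggrecan to hyaluronan, had the largest range of the 9 genes. It measured 10.1 CPM at day 0, 433 CPM at day 2, 1802 CPM at day 3 and 3304 CPM at day 4, higher on each day than on the one before. The steps were 43.0-fold (32.6 to 57.7), 4.16-fold (3.97 to 4.36) and 1.83-fold (1.79 to 1.88), and day 4 stood 328-fold above day 0 (249.7 to 439). At day 4 this single gene held 0.331% of all counts and ranked 5th by CPM, and 76th by FPKM, among 17664 listed genes. At day 0 it had ranked 9887th by CPM.

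HAPLN3, a link protein gene of wider tissue distribution, went the opposite way at day 2. It measured 27.7 CPM at day 0, 3.14 CPM at day 2, 5.02 CPM at day 3 and 7.45 CPM at day 4. Undifferentiated cells were highest, and the 3 later values, of 16 to 41 counts, were low. Day 2 was 8.84-fold below day 0 (5.26 to 15.9) and day 4 was 3.72-fold below it (2.61 to 5.40), at a level 2.37-fold above day 2 (1.30 to 4.53).

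Per length, HAPLN3 stood 6.88-fold above HAPLN1 at day 0 (4.97 to 9.64), and HAPLN1 stood 55.0-fold (33.8 to 96.5), 143-fold (97.7 to 219) and 177-fold (131 to 247) above HAPLN3 at days 2, 3 and 4. The balance of link protein to versican turned as well. VCAN stood 61.1-fold above HAPLN1 at day 0 (46.5 to 81.9), whereas HAPLN1 stood 1.57-fold above VCAN at day 2 (1.49 to 1.66), 3.42-fold at day 3 (3.31 to 3.53) and 8.80-fold at day 4 (8.51 to 9.10). These are ratios of RNA and say nothing of the proteins.

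**Figure D3:**
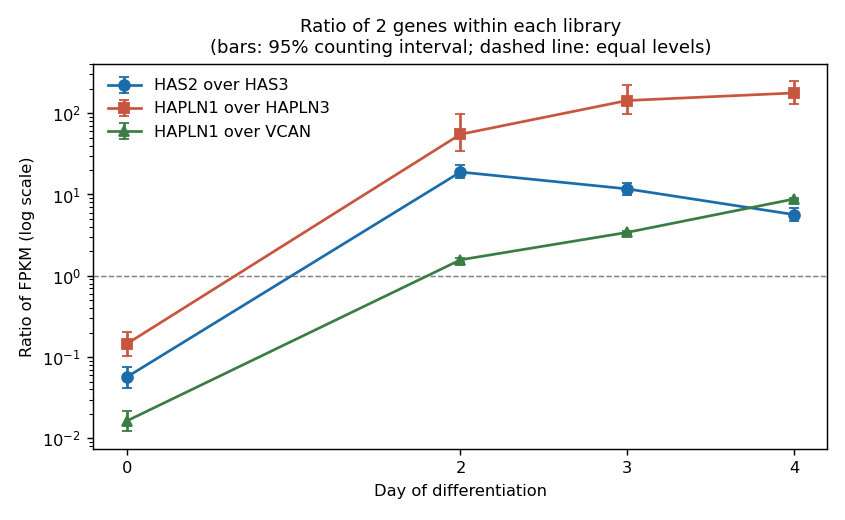
Ratio of the FPKM of 2 genes within each library (vertical axis, log scale) against the day of differentiation, for HAS2 over HAS3, HAPLN1 over HAPLN3 and HAPLN1 over VCAN, with 95% counting intervals as bars. All 3 ratios are below 1, the dashed line, at day 0 and above it from day 2, and HAS2 over HAS3 comes down from 18.9 to 5.66 while both HAPLN1 ratios keep climbing.

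In the RefSeq order of protein-coding genes, HAPLN1 lies next to VCAN on chromosome 5, and HAPLN3 next to the aggrecan gene ACAN on chromosome 15. The neighbours did not share a course: VCAN was lowest at day 2 while HAPLN1 was higher at each day, and ACAN measured 0.582, 0.981, 2.71 and 4.54 CPM at days 0, 2, 3 and 4 while HAPLN3 was highest at day 0. EDIL3, on the other side of HAPLN1, measured 42.1, 11.97, 54.3 and 82.7 CPM, and was lowest at day 2 like VCAN. MFGE8, on the other side of HAPLN3, measured 457, 133, 196 and 276 CPM, with the same order of days as HAPLN3.

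Of the small proteoglycans, LUM and BGN were higher at day 4 than at day 0 and DCN was near 0. LUM, which encodes a keratan sulfate proteoglycan of collagen fibrils, had 3 counts (0.582 CPM) at day 0 and measured 22.8, 35.8 and 90.9 CPM at days 2, 3 and 4. Each day was higher than the one before beyond counting error. Day 2 stood 39.1-fold above day 0 (13.1 to 192), an interval made wide by the 3 counts, and day 4 stood 3.99-fold above day 2 (3.26 to 4.93), just short of the 4-fold rule on its scale.

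BGN, which encodes a proteoglycan with chondroitin or dermatan sulfate chains, measured 8.34 CPM at day 0, 4.90 CPM at day 2, 19.9 CPM at day 3 and 57.4 CPM at day 4. It was lowest at day 2. Day 3 was 4.06-fold above day 2 (2.60 to 6.56), which is 1.82 on the log2(CPM + 1) scale, day 4 was 2.89-fold above day 3 (2.30 to 3.64), and day 4 stood 6.89-fold above day 0 (4.997 to 9.71). Its deposited counts of 43.33, 25.19 and 316.06 at days 0, 2 and 4 were not whole, so some of its reads were shared with another gene model and its levels are less certain than the intervals say.

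DCN, the small proteoglycan gene typical of mature fibroblasts, had 0 counts at days 0, 2 and 3 and 3 counts (0.545 CPM) at day 4. It adjoins LUM on chromosome 12, and KERA, the small proteoglycan gene on the other side of LUM, was listed in no library. Of these 3 neighbours, LUM alone passed 1 CPM. Per length, BGN stood 12.5-fold above LUM at day 0 (3.99 to 62.8), and LUM stood 5.37-fold (3.46 to 8.64), 2.10-fold (1.64 to 2.70) and 1.85-fold (1.60 to 2.13) above BGN at days 2, 3 and 4.

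At day 2 against day 0, 3 of the 8 genes above 1 CPM were counted as higher (HAPLN1, HAS2 and LUM), where 4.63% of all 15379 genes were, and 2 as lower (HAPLN3 and HAS3), where 1.93% were. At day 3 against day 2, HAPLN1 alone was higher, against 1.32%, and 0 were lower, against 0.406%. At day 4 against day 3, 0 were higher (0.377% of all genes) and 0 lower (0.228%). At day 4 against day 2, HAPLN1, CD44 and BGN were higher, against 2.32%, and 0 lower, against 1.4%. At day 4 against day 0, 5 were higher (HAPLN1, HAS2, CD44, LUM and BGN), against 6.27%, and HAS3 was lower, against 3.44%. Since the 9 genes were picked with these results known, nothing is read from their shares. The median log2 difference of the 8 genes was 0.218 at day 2 against 0, 0.776 at day 3 against 2 and 0.681 at day 4 against 3. It was 1.49 at day 4 against 2 and 3.25 at day 4 against 0. Over all genes the medians were -0.0009, 0.0031, -0.0067, 0.0185 and 0.0266 in that order. For the same reason, nothing is read from this contrast. Together the 9 genes held 0.167% of all counts at day 0, 0.190% at day 2, 0.363% at day 3 and 0.470% at day 4.

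The rest of the pathway was followed through 6 lists with 91 genes, 84 of them listed in some library. Of 71 to 72 with at least 1 CPM, 12 were higher and 0 lower at day 2 than at day 0 (4.63% and 1.93% of all genes), and 12 were higher and 7 lower at day 4 than at day 0 (6.27% and 3.44%). At day 4 against day 2, 5 of 71 were higher and 1 lower (2.32% and 1.4%). The lists were chosen with these results known, and nothing is read from their shares. Of the 12 genes higher at day 2, 3 were ADAMTS protease genes and 6 were matrix partners.

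Of 29 further genes of hyaluronan synthesis, turnover and binding, 20 were measured at day 2 against day 0, and 1 was past 4-fold, near the 4.63% of all genes that were higher. This was the receptor gene LAYN, with 25.7 CPM at day 2 against 4.07 CPM at day 0, 6.31-fold higher (3.96 to 10.54). The precursor enzyme genes differed less: UGP2 measured 572, 308, 212 and 236 CPM at days 0, 2, 3 and 4, and GFPT1 219, 483, 348 and 260.3 CPM. CEMIP2, which encodes a hyaluronan-degrading enzyme of the cell surface, measured 143, 192, 321 and 422 CPM. LYVE1, the hyaluronan receptor gene of lymphatic endothelium, was listed in no library. At day 4 against day 0, AMBP alone of 19 was lower, against 3.44% of all genes, with 1 count at day 4.

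The other lecticans and link protein genes measured at most 19.2 CPM. HAPLN4 measured 19.2 CPM at day 0, where HAPLN1 measured 10.1 CPM, and 4.51, 4.25 and 2.91 CPM later, 6.60-fold lower at day 4 (3.87 to 11.999). NCAN went from 6.40 CPM at day 0 to 0 counts at day 4, at least 11.7-fold lower against a floor of 3 counts in the day 4 library. ACAN stayed at or below 4.54 CPM and BCAN at or below 2.33 CPM. Of 4 measured members, 2 were lower and 0 higher at day 4 against day 0, where 3.44% and 6.27% of all genes were.

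Among 14 other small leucine-rich proteoglycans, 7 were measured at day 4 against day 0 and FMOD alone passed the rule, against 6.27% of all genes higher. FMOD (fibromodulin), a close relative of lumican that binds the same fibrils, measured 0.970, 11.2, 51.4 and 71.2 CPM at days 0, 2, 3 and 4, 73.5-fold higher at day 4 (31.2 to 228). It was higher on each day than on the one before, as LUM was. PRELP measured 90.0, 111, 65.7 and 30.4 CPM, TSKU 31.2, 90.6, 78.7 and 64.3 CPM, and OPTC at most 2.33 CPM. OMD, KERA and EPYC were listed in no library.

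All 22 genes of chondroitin and dermatan sulfate synthesis were measured. At day 2, 1 was higher than at day 0, against 4.63% of all genes, and at day 4, 2 were lower, against 3.44%. CHST3, a sulfotransferase gene, was higher at day 2, with 65.1 against 15.5 CPM, 4.20-fold (3.28 to 5.43). XYLT1, whose enzyme starts the chains on the core protein, fell from 67.1 CPM at day 0 to 15.4 CPM at day 4, 4.34-fold (3.42 to 5.57), and CHST7 fell from 9.89 to 1.45 CPM. CHSY1, which encodes a chain-extending synthase, measured 129, 158, 143 and 139.6 CPM.

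Of the 6 ADAMTS proteases known to cut versican and aggrecan, 3 were higher at day 2 (4.63% of all genes were) and 0 lower (1.93%). ADAMTS1 and ADAMTS5 peaked at day 2 and ADAMTS9 at day 3. ADAMTS1 measured 24.8, 196, 127 and 65.6 CPM at days 0, 2, 3 and 4, a peak at day 2 as in HAS2. ADAMTS5 measured 3.49, 63.4, 17.4 and 2.36 CPM, 18.2-fold higher at day 2 (11.3 to 31.0) and 26.8-fold lower again from day 2 to day 4 (15.5 to 50.9). ADAMTS9 measured 1.16, 39.0, 219 and 152 CPM, highest at day 3 and 130.3-fold above day 0 at day 4 (59.6 to 356). ADAMTS20 fell from 10.1 to 0.545 CPM between days 0 and 4, 18.5-fold (5.99 to 92.6). ADAMTS4, at 19.6 to 33.3 CPM, and ADAMTS15, at 5.24 to 11.4 CPM, were not past 4-fold.

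Of 15 matrix partners and splicing factors, 14 were measured at day 4 against day 0, and 10 were higher and 1 lower, where 6.27% and 3.44% of all genes were. TNC, the gene of the hexameric glycoprotein tenascin-C, which binds versican, measured 16.3, 1451, 986 and 385 CPM at days 0, 2, 3 and 4, 89.1-fold higher at day 2 (71.9 to 112). FBN2, a microfibril gene whose protein family also binds versican, measured 45.8, 1240.35, 1714 and 919 CPM, and FBLN2 17.8, 65.9, 259.7 and 429 CPM. The 6 collagen genes of the list followed different courses. COL1A1, COL1A2, COL3A1 and COL6A3 passed the rule at day 4 but not at day 2 against day 0, with COL3A1 at 3.10, 7.45, 66.9 and 618 CPM and COL6A3 at 9.50, 13.5, 39.6 and 188 CPM. COL6A1 and COL6A2 passed it at day 2, with COL6A1 at 125 CPM on day 0, 755 CPM on day 2 and 389 CPM on day 4. FN1, the fibronectin gene, measured 254, 3612, 11745 and 10412 CPM at days 0, 2, 3 and 4, highest at day 3. COL1A1, COL1A2 and COL3A1 are also among the fibroblast markers given above. ESRP1, an epithelial splicing regulator gene, was the 1 lower, at 279.8 CPM on day 0 and 54.7 CPM on day 4, 5.12-fold (4.51 to 5.81).

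**Figure D4:**
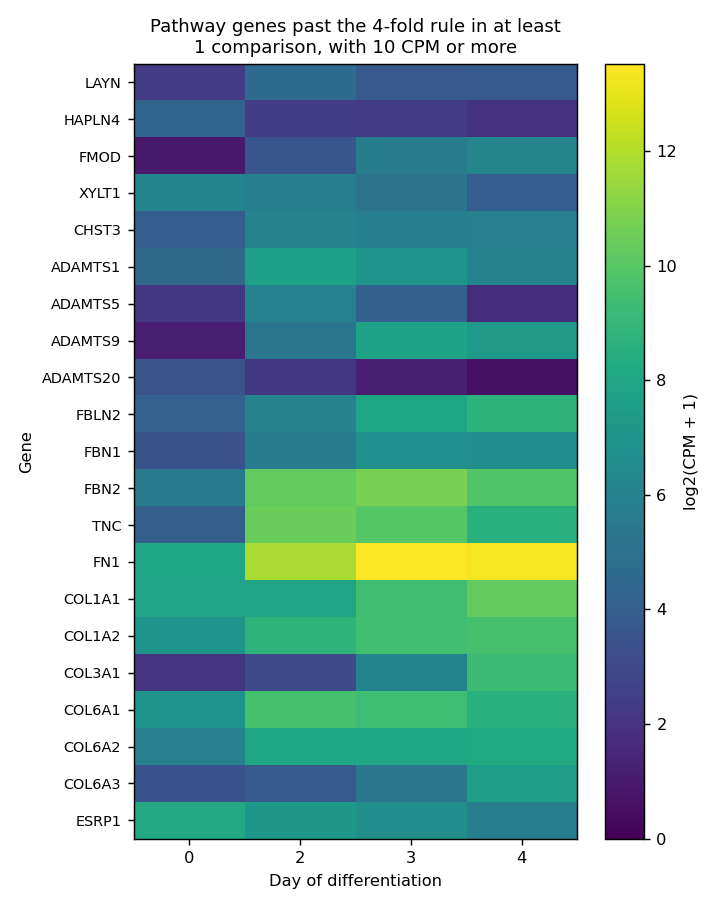
Level of the 21 pathway genes that passed the 4-fold rule in at least 1 comparison with 10 CPM or more, as log2(CPM + 1) (colour scale) for each day of differentiation, with 1 library per column. TNC, ADAMTS1 and ADAMTS5 are brightest at day 2, ADAMTS9 at day 3, and FMOD, FBLN2, COL3A1 and COL6A3 at day 4.

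The genes with the most similar course were sought among 11530 genes of at least 10 CPM on their highest day, by the distance between mean-centred log2(CPM + 1) over the 4 libraries, where 0 is an identical course. HAS2 lay closest to TNC (0.12), then to the ligand gene BMP2 (0.22) and LGR5 (0.27). VCAN lay closest to GABRA3 (0.13), UBE2D4 (0.13) and TRIB2 (0.14), and HAS3 to GLS2 (0.18), PHC1 (0.18) and PYGM (0.19). HAPLN3 lay closest to CD24 (0.16), then SH2D5 (0.27) and TCF7L1 (0.38).

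The genes that ended highest at day 4 had other neighbours. CD44 lay closest to NPNT (0.20), RHOJ (0.23) and HHEX (0.24), BGN to TXNIP (0.24), MMRN2 (0.28) and CD93 (0.35), and LUM to LRRC32 (0.40), CD34 (0.47) and SLC16A3 (0.50). HAPLN1 had no close companion: its nearest genes were PMP22 (0.92), IFI16 (1.19) and HOXB6 (1.24). PMP22 measured 0.970, 89.8, 403 and 328 CPM, and so lacked the further rise of HAPLN1 at day 4. Among the 9 genes themselves, the closest pair was HAPLN3 and HAS3 (0.95), both highest in undifferentiated cells, followed by VCAN with DCN (1.23), where DCN is flat near 0, and CD44 with BGN (1.33). With 4 points a course, these distances describe the libraries and nothing further.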

How the data were processed

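Per the labels' protocols, Trizol RNA (2 ug) went into an Illumina TruSeq kit, giving 4 libraries, 1 per day. The submitters' processing notes name BWA, Bowtie, RSEM and hg19, without versions. The series' design text also names TopHat and Cufflinks. The deposited tables hold an expected count, FPKM and a gene length in base pairs per Entrez ID, per the file headers. Symbols were looked up in RefSeq's gene table for GRCh38.p14, where 19273 of 19390 IDs were found, and a gene absent from a table was taken as 0. For a gene listed in no library, 0 counts and absence from the submitters' annotation cannot be told apart. Expected counts were rounded and scaled with TMM factors (edgeR 4.0.16, R 4.3.3) of 1.02, 0.981, 0.995 and 1.00 at days 0, 2, 3 and 4. Folds are ratios of CPM with exact conditional binomial 95% intervals, CPM have exact Poisson intervals, and intervals of FPKM ratios use the counts alone. Intervals came from scipy 1.17.1 under Python 3.11.15, tables from pandas 2.3.3 and numpy 2.4.6, and plots from matplotlib 3.10.9. The rule and intervals were tested on simulated data.

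The 9 genes, the 6 pathway lists, the marker lists and the rules were chosen with earlier results of these data known, and the length rule (1.5-fold, at least 50 counts) after the lengths were seen. Named pathway genes were those past 4-fold in any comparison with at least 10 CPM, and up to 3 others per list with the highest CPM. AMBP, CHST7, LYVE1, OMD, KERA and EPYC, and the neighbours on the chromosomes, were named after their values were seen. One blood marker, and the sum over that list, are not reported here. The pseudocount was 1 CPM. Each alternative altered a single setting. They were the deposited FPKM, a 2-fold threshold, pseudocounts of 0.1 or 5 CPM, scaling by a common total or by median-of-ratios factors, dropping the filter or raising it to 5 CPM, and lengths implied by count and FPKM. Minimums of 20 and 100 counts for the lengths were added after the data were seen. Transcript lengths and junctions are those of GENCODE 29, whose lengths differ from the deposited ones. Where the transcripts or windows of the other genes overlap annotated exons, no sequence is printed.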

Additional observations from a re-analysis of the deposited data

How the results depend on the processing

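No paired analysis was possible because each day is 1 library. The values rest on single libraries of about 5 M counts, so genes of few counts (LUM and DCN at day 0, HAPLN3 after day 0) are the least certain, and a difference between cultures cannot be seen. No difference of the 9 genes reversed under any alternative. Of 45 differences (9 genes, 5 comparisons), 45 kept their side of the 4-fold rule with pseudocounts of 0.1 and 5 CPM, median-of-ratios size factors and a common total, and 43 on the deposited FPKM. The exceptions were HAS3 at day 2 and at day 4 against day 0, with log2 differences of -1.84 and -1.86, so the lower genes became 1 at day 2 and 0 at day 4 against day 0. That follows from its shorter deposited length. Of 33 lengths, 33 implied by count and FPKM lay close to the deposited ones. As FPKM is itself the count divided by that length, a match was fixed in advance and does not test the lengths.

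At a 2-fold threshold, CD44 joined the higher and VCAN the lower genes at day 2 against 0. The 9 genes then gave 3 higher at day 3 against 2, and 3 higher and 1 lower at day 4 against 3. They gave 5 higher and 1 lower at day 4 against 2, and 2 lower at day 4 against 0. As above, nothing is read from their counts. Counts over all genes are given as higher and lower, in the order day 2 against 0, 3 against 2, 4 against 3, 4 against 2 and 4 against 0. With a pseudocount of 0.1 CPM they were 1087 and 676, 484 and 227, 243 and 228, 704 and 470, and 1492 and 930. With 5 CPM they were 362 and 112, 55 and 20, 11 and 7, 142 and 82, and 504 and 223. At the 2-fold threshold they were 1978 and 1355, 889 and 536, 455 and 653, 1260 and 1171, and 2514 and 1860. On FPKM, 83 were lower at day 4 against 3.

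Pathway genes at the 2-fold threshold were 21 higher and 6 lower at day 2 against 0, and 10 and 2 at day 3 against 2. They were 8 lower at day 4 against 3, 12 and 13 at day 4 against 2, and 28 and 16 at day 4 against 0. The counts over all genes at that threshold are given above. Of the pathway genes, 71, 72, 69, 71 and 72 were measured in these comparisons, in that order, and nothing is read from their counts. With a pseudocount of 0.1 CPM, 4 were lower at day 2 against 0, 3 lower at day 4 against 3, and 8 higher and 6 lower at day 4 against 2. With 5 CPM, 0 were lower at day 4 against 3 and 1 at day 4 against 0. On FPKM these were 0 and 2, and with a common total 2 were lower at day 2 against 0. With a minimum of 20 counts, 3 genes at day 2 and 9 at day 4 were 1.5-fold shorter than at day 0.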
